A study of Rattus norvegicus with 8 samples.

Results

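Here 10 microRNAs that are usually read as marks of blood, liver or blood vessel were followed in small RNA sequencing of exosomes (membrane vesicles shed by cells) from the rat intervertebral disc. They were miR-451-5p, miR-486 and miR-144-3p for red cells, miR-142-5p, miR-142-3p, miR-223-3p and miR-150-5p for leukocytes and platelets, miR-122-5p and miR-192-5p for liver, and miR-126a-3p for endothelium. They were chosen by name, as marks of cells outside the labelled type, and every deposited row of such a name, whatever its species prefix, was summed. These 10 names, held in 12 rows, are 10 of 1237 names in the table. The table writes them with a species prefix, as in rno-miR-451-5p, rno-miR-486, rno-miR-192-5p and mmu-miR-223-3p. The study set 4 libraries of exosomes from nucleus pulposus cells (NPC), from the soft core of the disc, beside 4 from nucleus pulposus progenitor cells (NPPC). Both groups are labelled as intervertebral disc of Rattus norvegicus; strain, age, passage, medium and treatment are not given in the labels used here. The labels do not say whether libraries of a group came from separate animals or cultures, so a p-value here rests on the spread among these libraries alone, and that spread may be technical.

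MicroRNAs are short RNAs that pair, mainly through bases 2 to 8 (the seed), with messenger RNAs and repress them. miR-451 and miR-144 are made from 1 transcript that the erythroid factor GATA1 switches on, and miR-451 is cut by Argonaute 2 instead of Dicer. Blood cells, liver cells and endothelial cells hold such miRNAs at levels far above those of most other cells, which is why they are used as marks of haemolysis, of liver injury and of vessel wall in biofluids. Animal serum in culture medium also carries vesicles with these miRNAs, and their mature sequences are mostly alike among mammals.

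The sequences below are shown because the seed defines what each miRNA pairs with, and because 1 deposited row starts at another base. They are RefSeq mature forms of assembly GRCr8, 5′ to 3′, with the seed in capitals; the RefSeq table held 8 of the 10 members. The last 2 lines are read from the deposited rows, with U for T.
miR-451-5p: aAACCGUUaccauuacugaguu
miR-144-3p: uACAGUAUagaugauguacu
miR-142-3p: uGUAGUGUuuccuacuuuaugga
miR-223-3p: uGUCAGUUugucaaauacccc
miR-192-5p: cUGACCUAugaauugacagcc
miR-126a-3p: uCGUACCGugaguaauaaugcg
miR-142-5p: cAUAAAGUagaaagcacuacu
miR-142-5p, deposited row: cCCAUAAAguagaaagcacua
miR-150-5p, deposited row: uCUCCCAAcccuuguaccagug

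Of the 8 matched members, 7 had a deposited row with the same first 8 bases as RefSeq. The exception was miR-142-5p, whose row began 2 bases upstream of the RefSeq start, so bases 2 to 8 read CCAUAAA in place of AUAAAGU. Both stretches lie in the RefSeq hairpin. No 2 of the printed RefSeq seeds were the same. In GRCr8, miR-451-5p lies at chr10:63459585-63459606 and miR-144-3p at chr10:63459446-63459465, both on the plus strand and overlapping no annotated gene but their own. The hairpin of miR-142 lies within the span of Tspoap1, with miR-142-5p at chr10:73055119-73055139. miR-126a-3p lies within that of Egfl7, an endothelial gene, at chr3:29813219-29813240. miR-223-3p lies in a long non-coding RNA gene at chrX:65151450-65151470, and miR-192-5p at chr1:212994232-212994252, in no other annotated gene. The gene table gives spans only, so exon and intron were not told apart.

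Library totals ran from 329012 to 1416939 estimated counts. The 10 members together took 0.0773% (95% exact Clopper-Pearson interval 0.0726 to 0.0822) of the counts in NPPC replicate 4, the lowest library, and 0.228% (0.219 to 0.237) in NPPC replicate 2, the highest. These intervals cover counting error only. Levels are given as CPM, counts per 1000000 after scaling by TMM factors. On that scale the members summed to 1170.4, 1727, 1895 and 1405 CPM in NPC replicates 1 to 4 and to 1285, 2489, 903 and 895 CPM in NPPC replicates 1 to 4. By share of counts NPC replicates 1 to 4 held 0.191%, 0.176%, 0.163% and 0.137%. NPC replicate 1 was thus the highest NPC library by share and the lowest in CPM, so its standing depends on the scaling. Among 386 names abundant enough to be tested, ordered by mean CPM, miR-486 stood 118th, miR-126a-3p 123rd, miR-192-5p 150th and miR-451-5p 154th. No level of a member exceeded 847 CPM. By contrast, 10 of 10 miRNAs listed for mesenchymal and cartilage cells (among them miR-21-5p, both arms of miR-199a and of miR-140) were above 0 in each of the 8 libraries. Together they took 31.4% to 50.2% of counts. miR-21-5p alone stood at 33939 CPM in NPC replicate 1 and at 367200 CPM in NPPC replicate 4. That list was chosen with earlier results of these data known, and which cells its RNA came from was not tested.

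**Figure D1:**
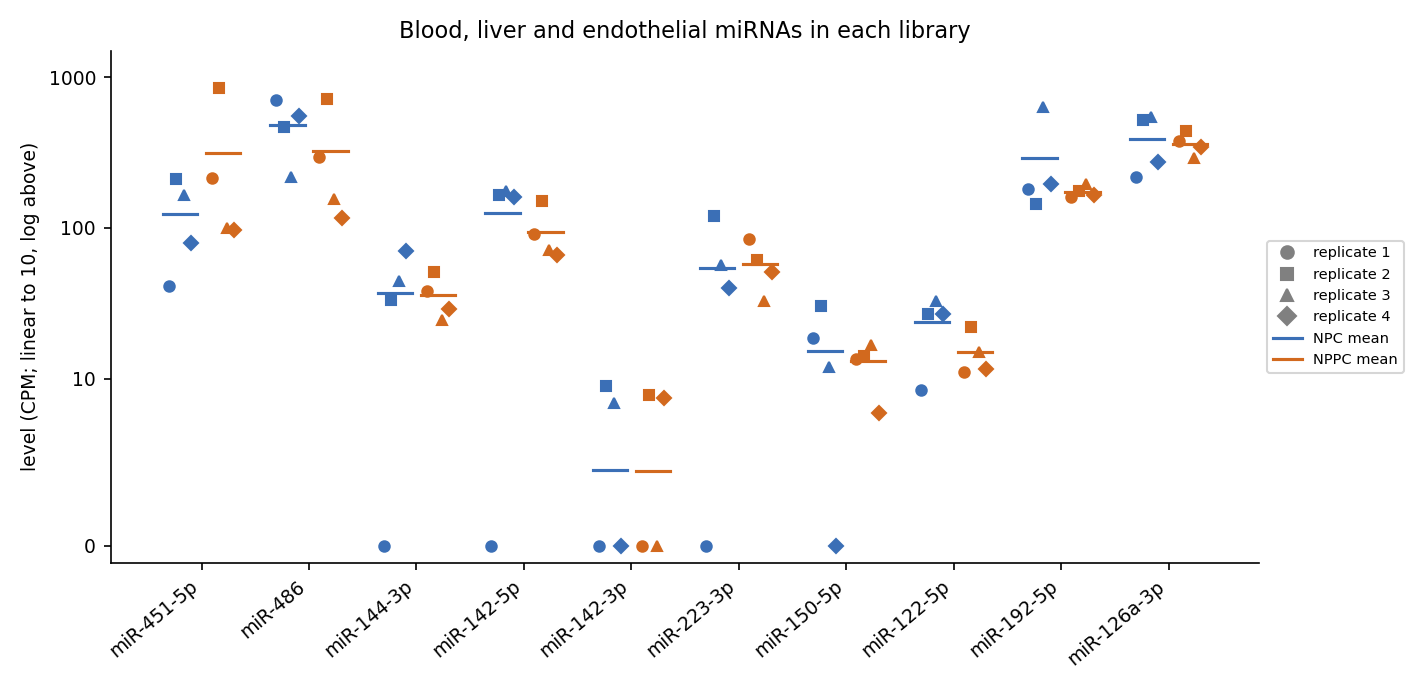
Level of each of the 10 miRNAs in CPM (linear to 10, logarithmic above) in the 4 NPC (blue) and 4 NPPC (orange) libraries, with marker shape for replicate number and a bar at the group mean. The groups overlap for each miRNA, NPPC replicate 2 is high for miR-451-5p at 847 CPM, NPC replicate 3 is high for miR-192-5p at 638 CPM, and 4 miRNAs are at 0 in NPC replicate 1.

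The question of the series is how NPPC exosomes differ from NPC exosomes in miRNA content. Of the 10 members, 9 passed the filter on low counts and miR-142-3p did not. Of those 9, 0 had an adjusted p under 0.05 by the quasi-likelihood test of edgeR (two-sided, adjusted by Benjamini-Hochberg over all 386 names), where 0.259% of all names did, namely 1, miR-146a-5p. At an unadjusted p under 0.05 the count was also 0 of 9, against 10.6% of all names (5.18% higher and 5.44% lower in NPPC exosomes). The DESeq2 Wald test had 0 of 9 at an unadjusted p under 0.05. It gave no adjusted p for miR-144-3p, miR-223-3p, miR-150-5p and miR-122-5p, and 0 of the remaining members passed. The groups did not overlap for 0 of 10 members, against 10.9% of tested names (6.74% higher in NPPC exosomes). Adjusted p of the 9 lay between 0.554 and 0.976. A log2 fold change of NPPC over NPC above 0 was found for 2 of 9 members and for 190 of all 386 names, with medians of -0.23 over the 9 and -0.0082 over all. Had a member differed, a change in a cell type's vesicles and one in the miRNA of each vesicle could not be told apart here.

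miR-451-5p, which is held by red cells, varied most within the NPPC group of the 9 tested members. It stood at 40.9, 211, 166 and 79.8 CPM in NPC replicates 1 to 4. In NPPC replicates 1 to 4 it stood at 213, 847, 99.3 and 97.2 CPM. NPPC replicate 2 lay far above all other libraries, while the other 3 NPPC libraries lay within or just above the NPC range. The NPC mean was 124 ± 78.0 CPM (SD, n = 4), and the NPPC mean 314 ± 359 CPM (SD, n = 4). The log2 fold change was 1.33 ± 0.81 (SE), with an adjusted p of 0.554 by edgeR. Without NPPC replicate 2 it was 0.10 (adjusted p = 0.977), and with a GC correction 0.73 (adjusted p = 0.804). Without the filter on low counts it was 1.42, with an unadjusted p of 0.00507 and an adjusted p of 0.269. Among all 386 tested names, miR-451-5p was also the one that stood out most in NPPC replicate 2, at 3.91 times the highest other library after adding 5 CPM to each value, a measure chosen after values were seen.

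miR-486, an erythroid and muscle miRNA encoded in the ankyrin 1 gene, had another order of libraries. It stood at 704, 466, 217 and 555 CPM in NPC replicates 1 to 4 and at 295, 719, 157 and 117 CPM in NPPC replicates 1 to 4. NPC replicate 1 and NPPC replicate 2 were the high libraries, and the groups overlapped. The means were 485 ± 204 CPM (SD, n = 4) and 322 ± 275 CPM (SD, n = 4). The log2 fold change was -0.59 ± 0.60 (SE), with an adjusted p of 0.670 by edgeR. Without NPPC replicate 2 the log2 fold change was -1.35, with an unadjusted p of 0.0257 and an adjusted p of 0.620. With total count scaling, which moved the median of all names from -0.0082 to -0.30, it was -0.98, and with a GC correction -0.27.

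miR-144-3p, which shares its transcript with miR-451, differed from it in the size of the change in NPPC replicate 2 and in the order of the NPC libraries. The 2 hairpins lie on chromosome 10 at 65291351 to 65291447 (miR-144) and 65291202 to 65291275 (miR-451) in the deposited table, on the minus strand of a build that the labels and header do not name, with 75 bases between them. miR-144-3p was at 0, 33.4, 44.5 and 70.3 CPM in NPC replicates 1 to 4. It was at 37.9, 51.0, 24.6 and 29.1 CPM in NPPC replicates 1 to 4. NPPC replicate 2 was the highest of its group for miR-144-3p too, but within the NPC range. Both miRNAs had their lowest value in NPC replicate 1, and over the 8 libraries their log2 CPM correlated at r = 0.586, a description of points that share depth and scaling. The log2 fold change was -0.055 ± 0.90 (SE) with an adjusted p of 0.976 by edgeR, and its sign turned under several settings. In counts, NPPC replicate 2 held 846 of miR-451-5p and 51 of miR-144-3p, a ratio of 16.6. In the other 6 libraries with both, the ratio ran from 1.14 in NPC replicate 4 to 6.33 in NPC replicate 2. NPC replicate 1 held 22 counts of miR-451-5p and 0 of miR-144-3p. The other arm, miR-144-5p, was at 0 CPM in NPC replicate 1 as well and between 12.7 and 28.1 CPM elsewhere.

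**Figure D2:**
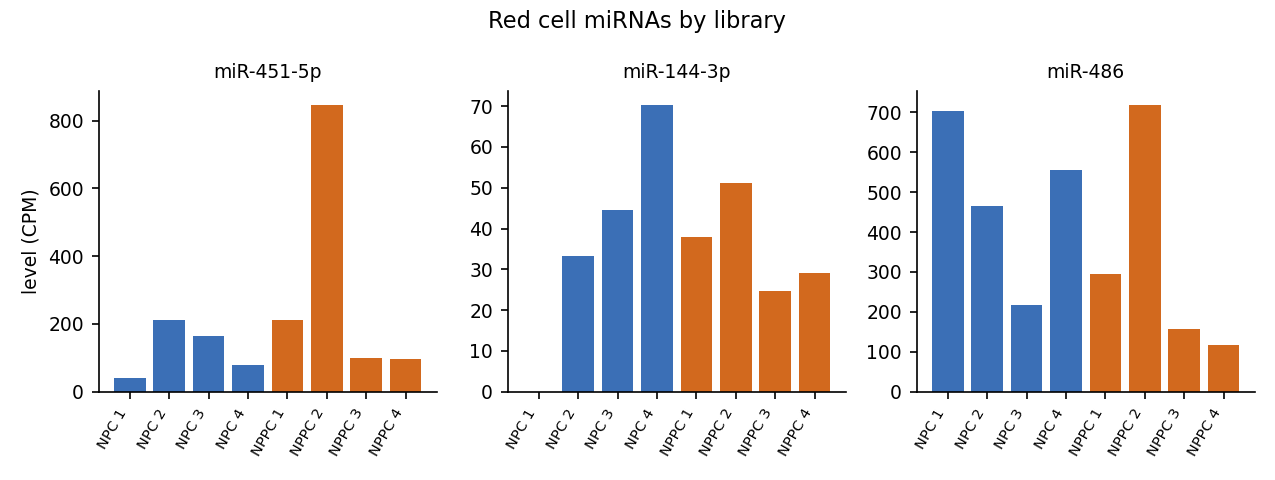
Bars give the level in CPM of miR-451-5p, miR-144-3p and miR-486 in each NPC (blue) and NPPC (orange) library, each panel on its own axis from 0. NPPC replicate 2 holds 847 CPM of miR-451-5p and 719 CPM of miR-486 but 51.0 CPM of miR-144-3p, and NPC replicate 1 holds 704 CPM of miR-486 and 0 of miR-144-3p.

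miR-486 was deposited in 3 rows, 1 with the rat name and 2 with a dog name that divide the counts of 1 longer sequence between them. The longer form had 23 bases, the rat form of 22 plus a T, and that T is not in the rat hairpin of the table. Its share of miR-486 counts was 39.0% ± 4.31 (SD, n = 4) over the NPC libraries and 42.4% ± 9.51 (SD, n = 4) over the NPPC libraries. NPPC replicate 2, the library high in miR-451-5p, had the lowest share, 28.4% (95% exact Clopper-Pearson interval 25.1 to 31.9) of 718 counts. The other NPPC libraries ran from 44.8% (38.4 to 51.3) to 49.2% (40.4 to 58.1), and the NPC libraries from 33.9% (25.7 to 42.8) to 44.2% (38.4 to 50.1). These intervals too cover counting error only, not the spread between libraries, and the difference of NPPC replicate 2 from the other libraries was not tested.

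The leukocyte and platelet miRNAs were low and 3 of the 4 were at 0 in NPC replicate 1. miR-142-5p, made across the blood cell lineages, was at 0, 165, 174 and 162 CPM in NPC replicates 1 to 4. In NPPC replicates 1 to 4 it was at 90.5, 150.1, 71.5 and 66.2 CPM. Each of the other 3 NPC libraries was above each NPPC library, while NPC replicate 1 was below all of them. The log2 fold change was -0.41 ± 0.97 (SE) with an adjusted p of 0.855 by edgeR. Without NPC replicate 1 it was -0.84, with an unadjusted p of 0.0209 and an adjusted p of 0.168. That fit is the only one leaving out a single library in which miR-142-5p had an unadjusted p under 0.05.

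The opposite arm, miR-142-3p, was listed in 4 of 8 libraries, at 9.53 and 8.55 CPM in NPC replicates 2 and 3 and at 9.01 and 8.83 CPM in NPPC replicates 2 and 4. These stand for 5 to 10 counts. Where both arms were listed the 5p arm, in its shifted form, had 7.50 to 20.4 times the counts of the 3p arm. Among values above 0 in rows with a sequence of their own, 2.41% were under 5 counts, so an entry of 0 may stand for a few reads.

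miR-223-3p, the miRNA of neutrophils, monocytes and platelets, was at 0, 121, 56.4 and 39.9 CPM in NPC and 84.4, 61.1, 32.6 and 51.2 CPM in NPPC replicates 1 to 4. Its groups overlapped widely, with a log2 fold change of 0.070 ± 0.95 (SE) and an adjusted p of 0.976 by edgeR. It turned to -0.37 without NPC replicate 1 and was 0.84 without NPC replicate 2. The row carries the mouse name and is 1 base longer than the rat mature form of 21 bases, and that whole sequence lies in the rat hairpin of RefSeq. miR-150-5p, which is high in mature lymphocytes, was the least abundant member tested. It was at 18.6, 30.2, 12 and 0 CPM in NPC and 13.5, 14.0, 16.7 and 7.95 CPM in NPPC replicates 1 to 4. Its log2 fold change was -0.23 ± 0.91 (SE), with an adjusted p of 0.922 by edgeR.

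A separate row with the bovine name of miR-150, outside the summed names, differed from the hairpin at the rat locus by C23U, counted from 1 at the 5′ end of the miRNA with the rat base first. It held 0, 8, 0 and 0 counts in NPC replicates 1 to 4 and 5, 7, 6 and 6 counts in NPPC replicates 1 to 4, too few to compare. Of the 12 rows of the members, 9 had rat names, and 9 listed a bovine hairpin among the miRBase entries that the authors matched to them. Whether a read of such a shared sequence came from rat cells or from medium was not tested.

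Of the liver miRNAs, miR-122-5p, which makes up most miRNA of hepatocytes, was near the bottom of the tested range. It was at 9.29, 27.0, 32.5 and 26.6 CPM in NPC and 11, 22.0, 15.1 and 11.5 CPM in NPPC replicates 1 to 4, which stand for 5 to 22 counts. The means were 23.9 ± 10.1 CPM (SD, n = 4) and 14.9 ± 5.08 CPM (SD, n = 4), with a log2 fold change of -0.67 ± 0.54 (SE) and an adjusted p of 0.639 by edgeR. Each NPPC library lay below NPC replicates 2 to 4 and above NPC replicate 1. With a GC correction the log2 fold change was -1.08, with an unadjusted p of 0.0485 and an adjusted p of 0.631.

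miR-192-5p, which is held by liver, kidney and gut epithelium, was far higher in 1 library than in the others. It stood at 180.2, 143, 638 and 196 CPM in NPC replicates 1 to 4 and at 160.3, 175, 197 and 164 CPM in NPPC replicates 1 to 4. NPC replicate 3 was far above the rest, and the other 7 libraries lay close together. The means were 289 ± 234 CPM (SD, n = 4) and 174 ± 16.5 CPM (SD, n = 4). The log2 fold change of -0.73 ± 0.48 (SE), with an adjusted p of 0.575 by edgeR, became 0.040 without NPC replicate 3 (adjusted p = 0.944). In that library miR-122-5p stood at 32.5 CPM, beside 26.6 and 27.0 CPM in NPC replicates 4 and 2, so it did not share the high level of miR-192-5p.

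The names whose levels ran most like those of miR-192-5p over the 8 libraries were, by Pearson correlation of log2 CPM, miR-215-5p (r = 0.912), miR-194-5p (r = 0.840) and miR-672-5p (r = 0.795). These correlations are descriptions that rest on NPC replicate 3, and all points share library depth and scaling. miR-215 is the paralog of miR-192 and miR-194 is made from the gene clusters of both. miR-215-5p stood at 35.3, 55.6, 569.6 and 74.1 CPM in NPC replicates 1 to 4 and between 23.2 and 41.0 CPM in the NPPC libraries. miR-194-5p stood at 130.05, 183, 392 and 129 CPM in NPC replicates 1 to 4 and between 168 and 176 CPM in the NPPC libraries. NPC replicate 3 was the high library for both. Among all 386 tested names miR-215-5p stood out most in NPC replicate 3, at 7.26 times the highest other library after adding 5 CPM. It was followed by mir-2904-1-p5, a bovine name, at 4.09 times and by miR-192-5p at 3.18 times.

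The rat form of miR-215 is printed next, since it carries the same seed as miR-192-5p and since the counts in NPC replicate 3 were of another form. It is the RefSeq mature form of GRCr8, chr13:99383003-99383024, with the seed in capitals.
miR-215: aUGACCUAugauuugacagaca

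The row counted as miR-215-5p carries a mouse name and differs from that rat form by U12A, counted from 1 at the 5′ end with the rat base first. Its sequence is not in the hairpin that the table gives for it on chromosome 13. It held 333 counts in NPC replicate 3 and 19 to 41 in the other 7 libraries. The row with the rat name held 0 counts in NPC replicate 3 and 0 to 16 elsewhere. A row with a pig name, miR-194b-5p, held 37 counts in NPC replicate 3 and 0 to 13 elsewhere. Whether RNA of another species had a part in the high values of NPC replicate 3 was not tested.

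**Figure D3:**
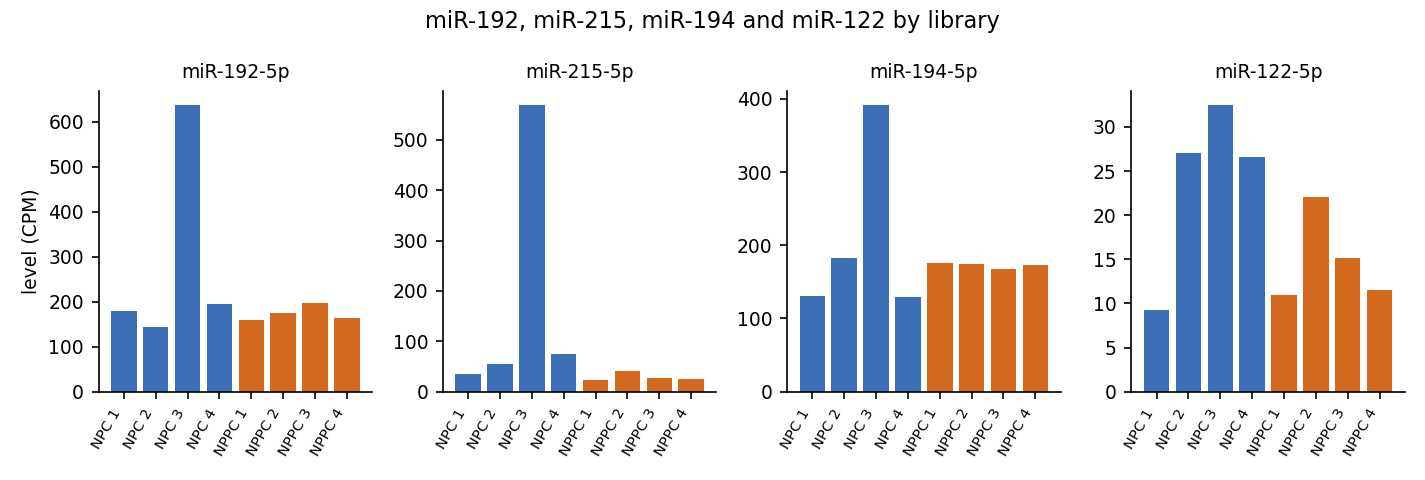
Bars give the level in CPM of miR-192-5p, miR-215-5p, miR-194-5p and miR-122-5p in each NPC (blue) and NPPC (orange) library, each panel on its own axis from 0. NPC replicate 3 stands at 638, 569.6 and 392 CPM for the first 3, above all other libraries, and at 32.5 CPM for miR-122-5p, where NPC replicates 2 and 4 hold 27.0 and 26.6 CPM.

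miR-126a-3p, the miRNA of endothelial cells that sustains their response to VEGF, had a coefficient of variation of 43.0% over the NPC and 17.6% over the NPPC libraries. It stood at 217, 521, 546 and 276 CPM in NPC and 379, 441, 289 and 342 CPM in NPPC replicates 1 to 4, and the NPPC range lay inside the NPC range. The means were 389.96 ± 168 CPM (SD, n = 4) and 363 ± 64.0 CPM (SD, n = 4), with a log2 fold change of -0.10 ± 0.33 (SE) and an adjusted p of 0.908 by edgeR. It was -0.58 with the GC correction. The other arm, miR-126a-5p, stood at 59.5, 205, 159 and 177 CPM in NPC and 182, 246, 173 and 169 CPM in NPPC replicates 1 to 4. Its log2 fold change was 0.36 ± 0.37 (SE) with an adjusted p of 0.670 by edgeR. The 3p arm had 1.56 to 3.66 times the counts of the 5p arm, lowest in NPC replicate 4 and highest in NPC replicate 1. The name most like miR-126a-3p over the 8 libraries was miR-100-5p (r = 0.897), which endothelial and mesenchymal cells both hold. It was followed by miR-299a-5p (r = 0.800) and miR-194-5p (r = 0.759), the latter listed with the liver names. These correlations too are descriptions of points that share library depth and scaling.

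**Figure D4:**
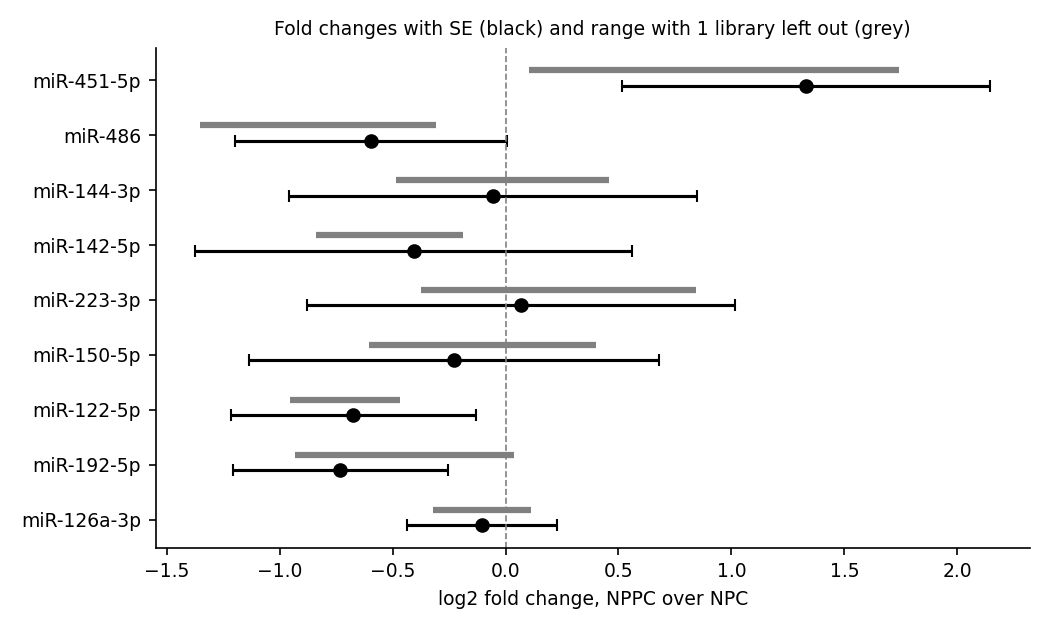
Points give the log2 fold change of NPPC over NPC for the 9 tested members with its SE, and grey bars the range of that value with each of the 8 libraries left out in turn. For miR-451-5p the range reaches down to 0.10, and for miR-144-3p, miR-223-3p, miR-150-5p, miR-192-5p and miR-126a-3p it includes 0.

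The 3 libraries with extreme values differed in which members were high or low. Their sets were not separate, since miR-486 was high both in NPC replicate 1, at 704 CPM, and in NPPC replicate 2, at 719 CPM. NPPC replicate 2 was the highest of the NPPC libraries for 7 of 10 members, all but miR-223-3p, miR-150-5p and miR-192-5p. The share of all names highest in that library was not counted. Summed red cell members stood at 1616 CPM there and at 243 to 546 CPM in the other NPPC libraries, while summed leukocyte and platelet members stood at 234 CPM against 121 to 188 CPM. NPC replicate 3 stood at 671 CPM for the 2 liver members, against 170.03 to 222 CPM in the other NPC libraries. Of that sum miR-192-5p, which kidney and gut also hold, was 638 CPM and miR-122-5p 32.5 CPM. NPC replicate 3 had the lowest red cell sum of its group, 428 CPM.

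NPC replicate 1 was lowest in CPM, or tied for lowest, among the NPC libraries for 7 of 10 members and at 0 for 4, yet highest for miR-486. The share of all names lowest or at 0 in that library was not counted. Names outside the members were at 0 there too, among them miR-10a-3p, miR-19a-3p and miR-1839-5p, while others, such as miR-191a-5p, were highest there. By share of counts, miR-126a-3p was lowest in NPC replicate 4 (0.0270%), not in NPC replicate 1 (0.0356%). The 4 members at 0 (miR-144-3p, miR-142-3p, miR-142-5p and miR-223-3p) had a GC content of 30.0% to 40.9%. miR-451-5p, at 40% GC, had 0.268 times the mean of the other 3 NPC libraries, and miR-192-5p, at 47.6%, had 0.553 times. miR-150-5p, at 54.5%, and miR-486, at 63.6%, had 1.32 and 1.71 times. With a GC correction over all names, added after seeing the data, 0 of the 9 tested members passed the adjusted threshold, and 1, miR-122-5p, had an unadjusted p under 0.05 by edgeR. The log2 fold change was then 0.73 for miR-451-5p, -0.74 for miR-142-5p, -0.50 for miR-144-3p and -0.20 for miR-223-3p. NPC replicate 1 also had the smallest total and a TMM factor of 1.64, where the others lay between 0.860 and 1.02. The names most like miR-142-5p over the 8 libraries were miR-1-3p and miR-1b (r = 0.980 each, rows of 1 shared sequence) and miR-196b-3p (r = 0.978), all 3 of which are at 0 in NPC replicate 1. Those most like miR-486 carried bovine names, miR-11987 (r = 0.886), miR-342 (r = 0.841) and mir-2887-2-p5 (r = 0.814).

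**Figure D5:**
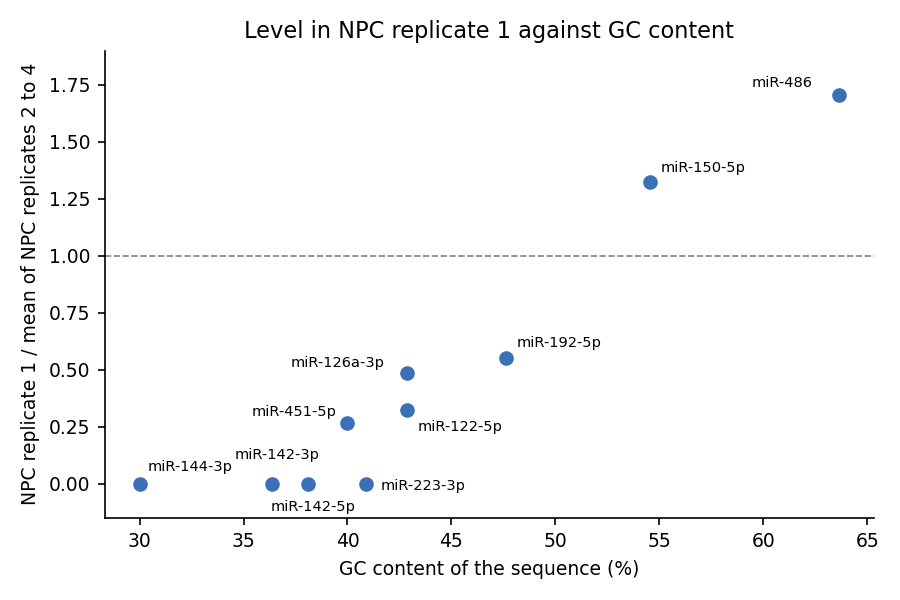
Each point is 1 of the 10 miRNAs, with the GC content of its deposited sequence in percent on the horizontal axis and its level in NPC replicate 1 divided by the mean of NPC replicates 2 to 4 on the vertical axis; the dashed line marks equal levels. The 4 miRNAs at 0 have a GC content of at most 40.9%, and miR-150-5p and miR-486, with 54.5% and 63.6%, lie above the line.

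Other miRNAs of the same cell types were read from lists. Of 6 further red cell names 4 were tested, with 0 past the adjusted threshold and 2 at an unadjusted p under 0.05, both higher in NPPC exosomes, where 5.18% of all names were. These were miR-16-5p, which is abundant in red cells and most other cells, with an NPC mean of 718 ± 105 CPM (SD, n = 4) and an NPPC mean of 1263 ± 187 CPM (SD, n = 4) (edgeR adjusted p = 0.276), and its relative miR-15b-5p (edgeR adjusted p = 0.387). In NPPC replicate 2, the library with the highest miR-451-5p, miR-16-5p stood at 1273 CPM, within the 995 to 1397 CPM of the other NPPC libraries. Of 9 further leukocyte names 8 were tested, and 1 rose, miR-146a-5p, an inducible brake on NF-kappaB signalling that many cell types make, with a log2 fold change of 3.41 ± 0.48 (SE) and an adjusted p of 0.0296 by edgeR. It did not pass in 8 of 20 alternative settings, namely the rows as deposited and the 7 fits that left out a library other than NPC replicate 1, and its adjusted p ran up to 0.227 without NPC replicate 2. At an unadjusted p under 0.05, 2 of the 8 were higher in NPPC exosomes, miR-146a-5p and miR-155-5p, which activated immune cells make. miR-155-5p stood at 14.9, 126, 173 and 118 CPM in NPC replicates 1 to 4 and at 220.2, 281, 304 and 345 CPM in NPPC replicates 1 to 4, with no overlap. Its log2 fold change was 1.42 ± 0.59 (SE), with an adjusted p of 0.427 by edgeR. Of 8 further liver and kidney names 5 were tested and of 7 further endothelial names 6, with 0 past the adjusted threshold in either list and 0 and 2 at an unadjusted p under 0.05, the 2 being miR-221-3p and miR-218a-5p, both higher in NPPC exosomes. Many of these names are also made by mesenchymal cells. Median log2 fold changes were 0.89, 0.17, -0.0092 and 0.35 in this order, against -0.0082 over all names.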

How the data were processed

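Small RNA was sequenced from exosomes in 8 libraries. A commercial kit for exosome RNA and TruSeq small RNA reagents were used, per the labels' protocols. The submitters' processing notes name CASAVA 1.8; the genome build, miRBase version and aligner used were not given in the sources used here. Per miRNA row, the authors deposited estimated counts for 1512 rows and, beside them, a scaled signal that equals the count times 1 factor per library. Counts were summed per mature name (species prefix and any suffix that marks a sequence difference dropped) in Python 3.11.15 and rounded. edgeR 4.0.16 in R 4.3.3 was run with TMM factors, filterByExpr, group as the only term, the two-sided quasi-likelihood test and Benjamini-Hochberg adjustment over 386 names. SE is the log2 fold change over the root of the test statistic. Log2 CPM used a prior count of 2. The members, the lists and the naming rule were chosen with earlier results of these data known; all members were named, with other names by list and by likeness to the most abundant tested member of each class. Low-count rows and sequences shared by rows are uncertain in how reads were split. Replicate numbers of the titles were treated as pairing the libraries, because deviations of same-numbered libraries from their group means correlated in each of 4 pairs (r = 0.125 to 0.563). That pairing is read from the data, only 4 of 8 libraries correlated best with their own number, and differently numbered pairs reached r = 0.347; the block entered 1 alternative and not the reported fit. Fixed alternatives were DESeq2 size factors, total count scaling, no filter, a minimum of 10 CPM in 4 or more libraries, DESeq2 1.42.0 (Wald test), the replicate block, rows as deposited, rat names only, rows without a base substitution and each library left out. Added after seeing the data were the authors' scaling, a GC correction (loess, span 0.75) and 3 libraries left out together. Tested on simulated data, the fit of NPPC over NPC on 355 names recovered 26.7% of 90 names changed 2-fold. It recovered 74.2% of 89 names changed 4-fold and called 3 of 176 unchanged names. So large a share of changed names eases the adjustment, so recovery in the real data may be lower. Summaries and figures used pandas 2.3.3 and matplotlib 3.10.9. The sequences of miR-486 and miR-122-5p are not reported here.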

Additional observations from a re-analysis of the deposited data

Results flagged for a closer look

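Over 32 groups of 4 libraries (the 10 members and 6 other named miRNAs in each cell type), 4 had 1 library well apart from the rest of its group. By chance about 1 in 20 groups would if values were normally distributed. That rate need not hold for CPM that were not transformed, with low counts and zeros, so the 4 are a description only. The groups are not independent draws, since they share libraries, and miR-215-5p was named for its likeness to miR-192-5p, which rests on NPC replicate 3. In NPPC replicate 2 miR-451-5p stood at 847 CPM, with the other NPPC libraries between 97.2 and 213 CPM. In NPC replicate 3 miR-192-5p stood at 638 CPM (others 143 to 196 CPM) and miR-215-5p, in the form that differs from the rat one by U12A, at 569.6 CPM (others 35.3 to 74.1 CPM). In NPC replicate 1 miR-142-5p stood at 0 CPM (others 162 to 174 CPM).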

How the results depend on the processing

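Over all alternatives run, with edgeR or DESeq2, 0 members passed the adjusted threshold and at most 2 had an unadjusted p under 0.05. DESeq2 gave no adjusted p for miR-144-3p, miR-223-3p, miR-150-5p and miR-122-5p. With the replicate block 0 members and 1 name in all passed, as without it; the log2 fold changes of miR-144-3p, miR-142-5p and miR-150-5p turned to 0.32, 0.00011 and 0.18, and the block changed no other call. Names past the adjusted threshold numbered 1 in the reported fit, 6 without a filter, 7 with DESeq2 and 0 with rows as deposited, and 0 to 3 with a library left out. miR-223-3p turned to -0.0097 with total count scaling and -0.20 with the GC correction, and miR-144-3p to 0.022 without a filter. Without NPC replicates 1 and 3 and NPPC replicate 2 together, miR-451-5p was -0.15, miR-223-3p -0.58 and miR-192-5p 0.017, while miR-142-5p was -1.13 (unadjusted p = 0.00212, edgeR adjusted p = 0.149) and miR-486 -1.46 (unadjusted p = 0.0131, edgeR adjusted p = 0.182). With 1 library left out the log2 fold change ran from -0.49 to 0.46 for miR-144-3p, from -0.37 to 0.84 for miR-223-3p, from -0.60 to 0.40 for miR-150-5p, from -0.93 to 0.040 for miR-192-5p, from -0.32 to 0.11 for miR-126a-3p and from 0.10 to 1.74 for miR-451-5p. The other members, miR-486, miR-142-5p and miR-122-5p, stayed negative there. The cause of these changes was not tested. Depth limits miR-142-3p, miR-150-5p and miR-122-5p, with at most 10, 21 and 22 counts a library.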
